A study of Sus scrofa with 6 samples.

Results

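The genes described here are the cytoplasmic translation initiation factors EIF1 to EIF6 and the elongation factors EEF1 and EEF2 of porcine oocytes. They were taken by symbol, as every gene whose name begins with EIF1 to EIF6 or with EEF1 or EEF2, without the EIF2 kinases EIF2AK1 to EIF2AK4 and without EIF4ENIF1. This gave 59 of the 29861 genes measured, of which 5 belong to EIF1, 10 to EIF2, 12 to EIF3, 15 to EIF4, 4 to EIF5, 1 to EIF6 and 12 to EEF. The symbols alone chose them, so the set also holds regulators such as the EIF4E-binding proteins and the enzymes that methylate or phosphorylate elongation factors.

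RNA was sequenced from pooled oocytes of pigs (Sus scrofa) in 3 groups of 2 samples each. Control oocytes matured without treatment, heat-stressed oocytes were kept at a raised temperature, and NMN-supplemented oocytes were kept at the raised temperature with nicotinamide mononucleotide (NMN), a precursor of NAD+. There was no group given NMN without heat stress. The labels give the stage of all 6 samples as GV and the time as 24 h, whereas the methods of the study describe metaphase II oocytes.

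Translation begins when EIF2 brings the initiator tRNA to the small ribosomal subunit, which EIF1, EIF1A, EIF3 and EIF5 hold ready to scan for a start codon. The EIF4 factors bring the mRNA, with EIF4E on the cap, EIF4G as the scaffold and EIF4A as the helicase, and EIF5B joins the large subunit. EEF1A then delivers each aminoacyl-tRNA and EEF2 moves the ribosome to the next codon. A fully grown oocyte makes almost no new RNA, and its proteins are made from stored mRNAs that are activated or removed during maturation.

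Levels are FPKM, by definition fragments per kilobase of transcript scaled to the mapped fragments of the sample. They are corrected for length and can be set side by side between genes. Which scaling between samples the deposited values carry was not established. Changes were tested with limma on log2(FPKM + 1) where the mean over the samples was 1 FPKM or more, which left 4713 genes and 24 of the 59 factors. The added 1 FPKM makes log2 fold changes of low genes smaller than their FPKM ratios. A gene was called changed at an adjusted P under 0.05. The smallest P that an exact permutation of 2 against 2 samples allows is 0.333, so none is given. Neither the labels nor the methods say whether the samples of a group came from separate cultures, so the P-values measure only the spread between these samples, which may be technical.

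Oocyte genes were present in all 6 samples, with all 15 oocyte markers detected and their FPKM summing to 3412 and 3639 in the controls, 3321 and 3326 after heat stress and 3122 and 2873 with NMN, without overlap between the groups and in the same order as the elongation factors below. Their part in those results was not tested. The 17 cumulus and granulosa cell markers summed to between 9.24 and 20.4 FPKM, with INHA and AMH at 0 in every sample and INHBA and GREM1 the highest. Their sums were 20.4 and 15.9 in the controls, 14.5 and 10.8 after heat stress and 9.24 and 15.4 with NMN, and their part was not tested either. In bulk RNA, fewer cells of a type and less RNA per cell cannot be told apart. Theca markers (5 genes, COL1A1 and COL3A1 at 0) reached at most 0.578 FPKM in sum and blood markers (4 genes) at most 0.474. Mitochondrially encoded genes made up 61.7% to 74.7% of the FPKM of a sample, and were highest in the NMN-supplemented samples, at 74.2% and 74.7%. The locus LOC100513953 took 13.9% of the FPKM of heat stress replicate 1 and 0% of the other samples. The median FPKM of the tested genes was between 3.11 and 3.22 in every sample. The number of genes above 0 FPKM was highest in the controls, at 17044 and 17163. It was 15712 and 16440 after heat stress and 16221 and 15707 with NMN. Its bearing on factors at low levels was not tested.

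A few factors made up most of the set. EIF1 had the highest mean, 342 FPKM, followed by EEF1A1 (77.9), EIF4E1B (57.8), EIF4G2 (53.2) and EIF4A2 (51.1), and these 5 held 79.0% to 82.6% of the summed FPKM of all 59 factors in each sample. At the other end, 49 factors had a mean of at least 0.1 FPKM, and EIF1AY, the Y-linked copy of EIF1A, was at 0 in all 6 samples. The sum over the 59 factors was 658 and 763 FPKM in the controls, 693 and 685 after heat stress and 757 and 782 with NMN. The sum of the elongation group was 116 and 115 FPKM in the controls, 80.3 and 76.9 after heat stress and 55.9 and 60.5 with NMN, with no overlap between groups. Most of it was EEF1A1, with 107 and 106, 74.9 and 70.1, and 52.9 and 57.0 FPKM. The EIF3 sum fell in the same order without overlap, at 9.26 and 10, 8.9 and 8.56, and 7.14 and 7.12 FPKM. So did EIF6, which is 1 gene at a low level. The EIF3 genes did not all share the order of their sum. EIF3J, the highest of them, had means of 4.02, 4.18 and 2.90 FPKM in control, heat stress and NMN. The means of EIF3A went up, at 0.453, 0.655 and 0.736.

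**Figure D1:**
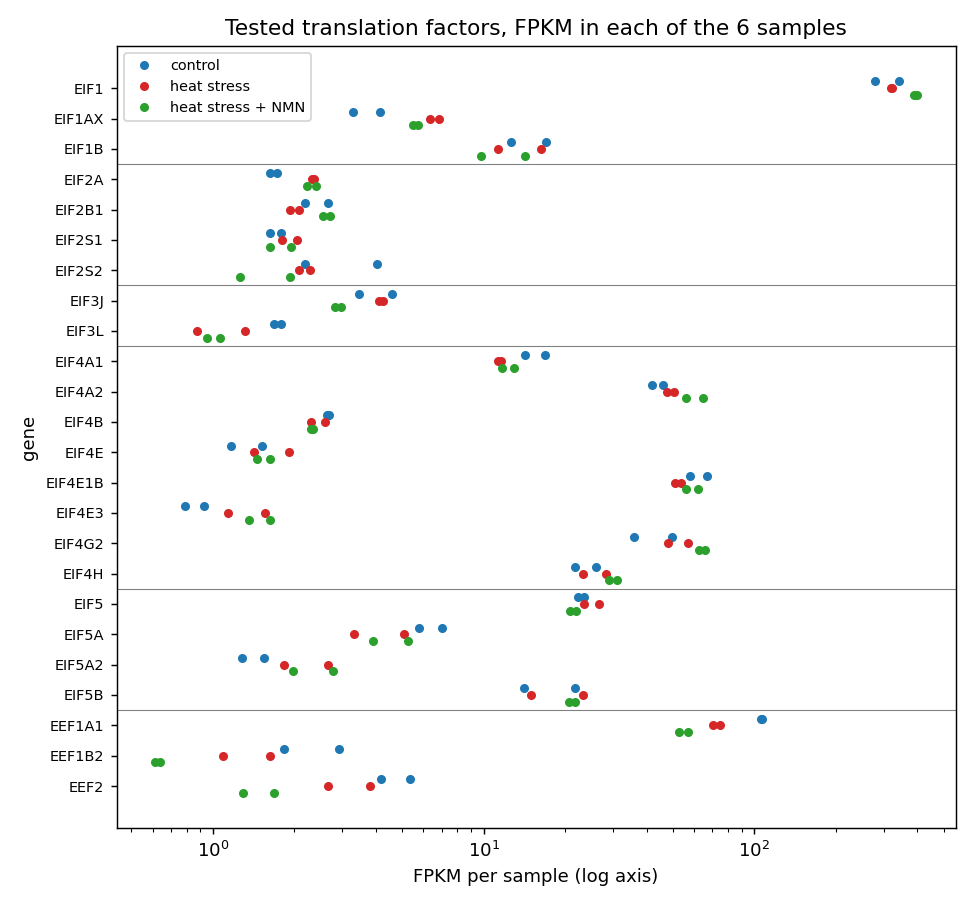
FPKM of the 24 tested factors (rows, grouped as EIF1, EIF2, EIF3, EIF4, EIF5 and EEF by grey lines) in each of the 6 samples on a log axis, with control in blue, heat stress in red and heat stress with NMN in green. EIF1 is highest at 279 to 400 FPKM, and for EEF1A1, EEF1B2 and EEF2 the 3 groups stand apart in the same order.

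In heat-stressed compared with control oocytes, no factor and no other gene passed the adjusted threshold in limma (0 of 4713 genes, 0%). At an unadjusted P under 0.05 there were 5 of the 24 factors, EIF1AX and EIF2A on the higher side and EEF1A1, EIF4A1 and EIF3L on the lower side, against 1074 of all tested genes. The background was 12.7% of all tested genes on the higher side and 10.1% on the lower side, so 2 and 3 of 24 are near it. With samples scaled to the same sum outside mitochondrial genes and LOC100513953 the split was 1 higher and 4 lower. The count was 3 without either NMN-supplemented replicate and 4 to 6 without any other single sample.

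In NMN-supplemented compared with heat-stressed oocytes, again no gene passed the adjusted threshold (0 of 4713, 0%), and 641 genes had an unadjusted P under 0.05. The factors among them were EEF2, EEF1A1, EEF1B2 and EIF3J, all 4 lower with NMN and none higher. The background was 6.45% lower and 7.15% higher. The 3 tested elongation factors were thus all on the lower side. Their median log2 fold change stayed between -0.70 and -0.44 when any 1 sample was left out. The count of 4 factors depended on single samples, and its range is given at the end. Under the scaling without mitochondrial genes and LOC100513953 the count was 2, and under quantile normalization it was 4 lower and 1 higher.

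In NMN-supplemented compared with control oocytes, 3 factors changed, and all were elongation factors that fell: EEF1A1, EEF2 and EEF1B2. EEF1B2 was tested because of its level in the control and heat-stressed samples, as both NMN-supplemented samples were below 1 FPKM. Among all tested genes 9.17% fell and 12.4% rose at the adjusted threshold, 1015 genes in all, so 3 of 24 factors falling is near that share. At an unadjusted P under 0.05 the background was 15.7% lower and 25.6% higher. Of the 24 factors 6 were higher, near that share, and 6 were lower, over it. Those lower were the 3 elongation factors with EIF3L, EIF2S2 and EIF3J. Those higher were EIF1, EIF1AX, EIF2A, EIF4A2, EIF4G2 and EIF4E3, the last tested through the samples in which it was higher. This made 12 factors in all. This count was 7 without control replicate 2, 4 without NMN replicate 1, 6 without NMN replicate 2 and 8 or 9 without any other single sample. The first and the last of these comparisons share the control samples, the first and the second share the heat-stressed samples, and the second and the third share the NMN-supplemented samples, so they are not independent of each other.

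**Figure D2:**
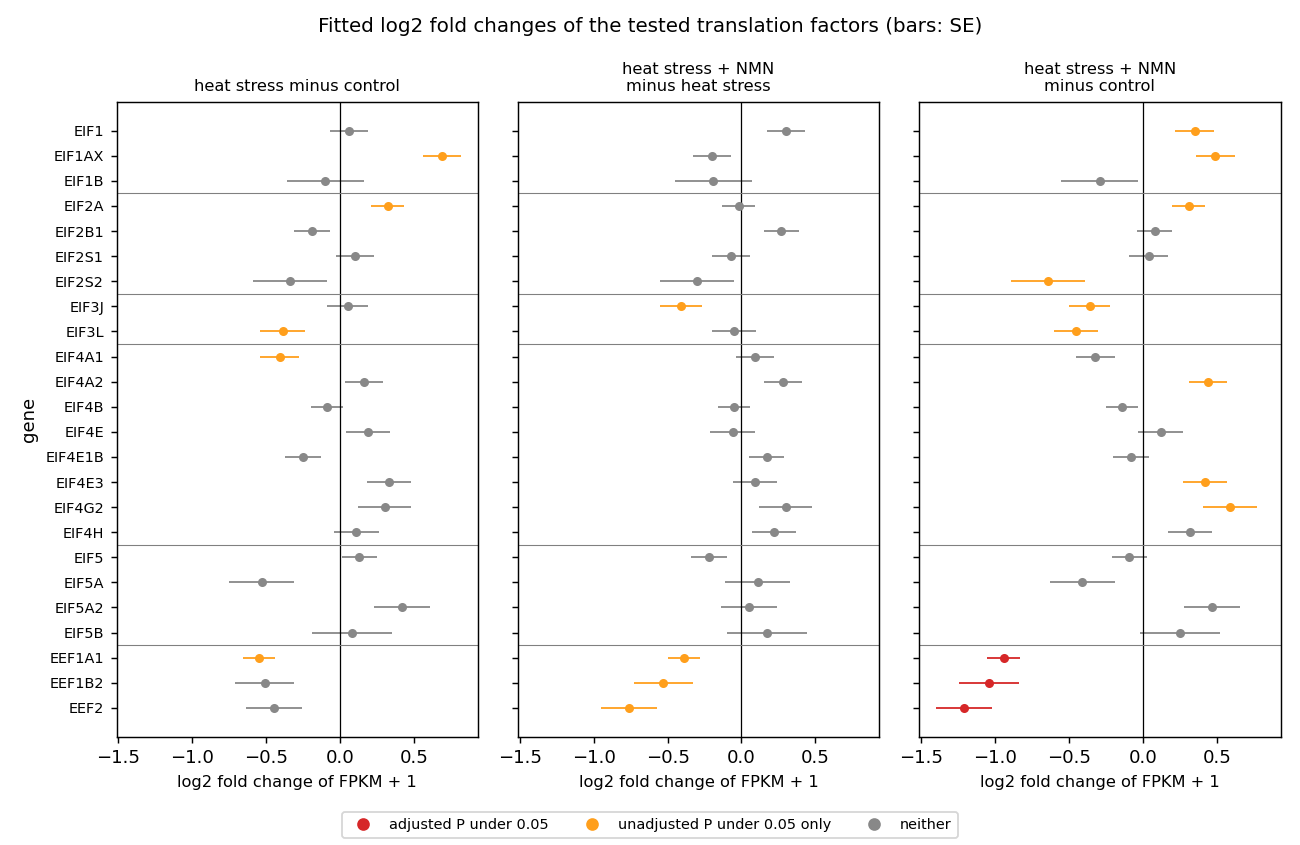
Fitted log2 fold changes of FPKM + 1 (points, with the standard error as bars) of the 24 tested factors in the 3 comparisons, with adjusted P under 0.05 in red, unadjusted P under 0.05 only in orange and neither in grey. Red points are EEF1A1, EEF1B2 and EEF2 in NMN-supplemented against control oocytes, at -0.94, -1.04 and -1.21.

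Over the tested members of each group of factors, medians are descriptions without a test of their own. The median log2 fold change of the 3 EEF genes was -0.51 in heat-stressed against control, -0.53 in NMN-supplemented against heat-stressed and -1.04 in NMN-supplemented against control oocytes, where the medians of all tested genes were 0.05, 0.08 and 0.11. Each of these EEF medians is the value of EEF1B2, which lay in the middle of the 3 and whose NMN-supplemented samples were below the minimum of 1 FPKM. The 8 EIF4 genes had medians of 0.13, 0.13 and 0.22 in the same order. The 4 EIF2 genes lay near 0, with medians of -0.04, -0.04 and 0.06, and the 2 EIF3 genes lay at -0.17, -0.23 and -0.40. EIF1 (3 genes) had medians of 0.06, -0.19 and 0.35, and EIF5 (4 genes) 0.10, 0.08 and 0.08. With genes down to a mean of 0.1 FPKM the EEF medians were -0.21, -0.09 and -0.24 over 10 genes and the EIF3 medians -0.05, -0.03 and -0.15 over 10 genes, on a scale where the added 1 FPKM leaves little room for genes so low.

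Whether the samples of 2 groups overlapped could be counted in the 49 factors with a mean of at least 0.1 FPKM. Between heat-stressed and control oocytes 20 factors were lower and 9 higher without overlap, where 23.8% and 23.4% of the 11651 genes at that level were. Between NMN-supplemented and heat-stressed oocytes 13 were lower and 9 higher (background 20.8% and 24%). Between NMN-supplemented and control oocytes 23 were lower and 11 higher (background 31.1% and 29.5%). The lower side was heaviest in the EEF group, where 7, 6 and 8 of 10 genes were lower without overlap in these comparisons and 0, 1 and 1 higher, the 1 being EEF1E1 in both. These 10 include the modifiers EEF1AKMT1, EEF1AKMT2, EEF1AKMT3 and EEF2K, and the EEF1AKMT genes share their listed loci with other genes. EEF1AKMT2, EEF1AKMT3, EEF1D and EEF2K reached 0.1 FPKM only through groups where they were higher. Their NMN-supplemented means were 0.0563, 0.0848, 0.0795 and 0.0737 FPKM. Likewise EIF2B4, EIF3H and EIF4A3 had a group mean under 0.1 FPKM. In EIF3 3, 2 and 5 of 10 were lower, in EIF2 3, 1 and 2 of 7, and in EIF4 5, 1 and 5 of 13. EIF4 was the group with the most genes on the higher side in NMN-supplemented against heat-stressed oocytes, 6 of 13, namely EIF4A1, EIF4A2, EIF4A3, EIF4E1B, EIF4G2 and EIF4H. Of these, EIF4A1, EIF4A3 and EIF4E1B were lower in heat-stressed than in control oocytes without overlap. Against control, 3 of 13 EIF4 genes were higher in heat-stressed and 4 of 13 in NMN-supplemented oocytes, near the background of 23.4% and 29.5%.

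EEF1A1, the abundant elongation factor that carries aminoacyl-tRNA to the ribosome, had 107 and 106 FPKM in the controls, 74.9 and 70.1 after heat stress and 52.9 and 57.0 with NMN. The means were 106 ± 0.304, 72.5 ± 3.35 and 55.0 ± 2.85 FPKM (SD, n = 2 each), so the lowest sample of each group lay above the highest of the next. The gene lies at chr1:92421235-92425053 of Sscrofa11.1. It fell by 0.94 on the log2 scale from control to NMN-supplemented oocytes (SE 0.11, adjusted P = 0.0210), and its mean FPKM fell by 48.3%. The log2 fold change was -0.55 in heat-stressed against control oocytes (SE 0.11, adjusted P = 0.118) and -0.39 in NMN-supplemented against heat-stressed oocytes (SE 0.11, adjusted P = 0.288). Its part of the summed FPKM of the 59 factors was 16.2% and 13.9% in the controls, 10.8% and 10.2% after heat stress and 6.99% and 7.28% with NMN.

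EEF2, the translocase that moves the ribosome along the mRNA, had 4.17 and 5.35 FPKM in the controls, 2.66 and 3.82 after heat stress and 1.29 and 1.69 with NMN. Here too no 2 groups overlapped, although heat stress replicate 2 came close to control replicate 1. EEF2 (chr2:74746541-74756687) fell by 1.21 on the log2 scale from control to NMN-supplemented oocytes (SE 0.19, adjusted P = 0.0223), and its mean FPKM fell by 68.7%. The log2 fold changes of the other comparisons were -0.45 (SE 0.19, adjusted P = 0.242) for heat stress against control and -0.76 (SE 0.19, adjusted P = 0.271) for NMN against heat stress.

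EEF1B2, a subunit of the exchange factor that recharges EEF1A with GTP, had 2.92 and 1.84 FPKM in the controls, 1.09 and 1.63 after heat stress and 0.641 and 0.611 with NMN. Its mean of 1.45 FPKM was over the minimum of 1 because of the control and heat-stressed samples, since both NMN-supplemented samples were below it. EEF1B2 (chr15:109451901-109455529) fell by 1.04 on the log2 scale from control to NMN-supplemented oocytes (SE 0.20, adjusted P = 0.0293). The log2 fold change was -0.51 (SE 0.20, adjusted P = 0.221) for heat stress against control and -0.53 (SE 0.20, adjusted P = 0.360) for NMN against heat stress.

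These 3 calls rest on few samples. For EEF1A1, EEF2 and EEF1B2 in turn the adjusted P was 0.104, 0.105 and 0.104 without control replicate 2, 0.114, 0.117 and 0.129 without NMN replicate 1, 0.0968, 0.0968 and 0.117 without NMN replicate 2, and 0.0430, 0.0486 and 0.0723 without control replicate 1. With a minimum mean of 0.1 FPKM it was 0.0495, 0.0529 and 0.0645. The unadjusted P of all 3 stayed under 0.05 in every alternative in which the gene was tested, with log2 fold changes that stayed below 0.

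**Figure D3:**
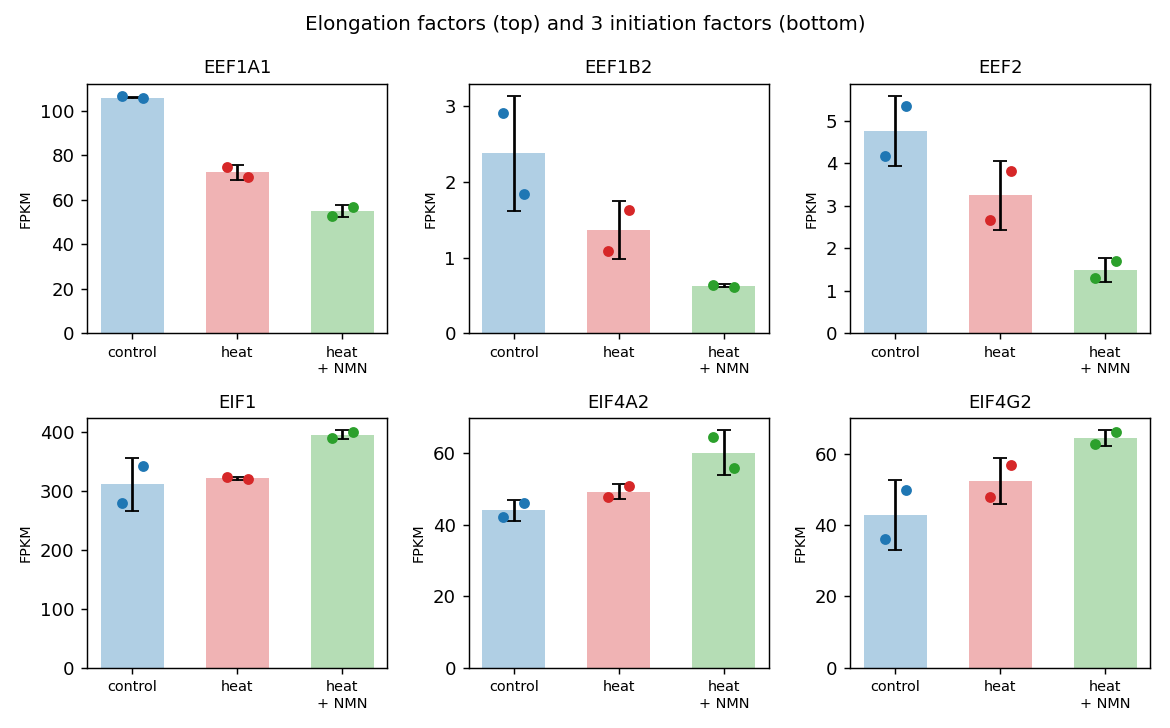
FPKM of EEF1A1, EEF1B2 and EEF2 (top row) and of EIF1, EIF4A2 and EIF4G2 (bottom row) by group, with bars for the mean, error bars for the SD (n = 2) and points for the samples. The elongation factors step down from control to heat stress to heat stress with NMN, for EEF1A1 from 106 to 72.5 to 55.0. The 3 initiation factors are highest in the NMN-supplemented samples, but none of them passed the adjusted threshold. Other tested initiation factors, such as EIF3J, EIF3L and EIF2S2, were lower with NMN than in control.

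The other EEF1 subunits were below the minimum for testing. EEF1G had 0.388 and 0.553 FPKM in the controls, 0.278 and 0.274 after heat stress and 0.329 and 0.221 with NMN, and EEF1D had 0.247 and 0.200, 0.148 and 0.164, and 0.0611 and 0.0979. Both were lower in heat-stressed and NMN-supplemented than in control oocytes without overlap. EEF1E1, a member of the EEF1 family by name that is part of the tRNA synthetase complex, had 0.262 and 0.193, 0.322 and 0.195, and 0.336 and 0.449 FPKM, with NMN-supplemented samples above all others. EEF1A2, the form of EEF1A found in muscle and neurons, was above 0 in heat stress replicate 2 alone, at 0.0136 FPKM. Of the modifiers, EEF1AKMT1, a methyltransferase of EEF1A, had the highest mean, 0.204 FPKM, with 0.312 and 0.427 in the controls, 0.116 and 0.111 after heat stress and 0.0845 and 0.176 with NMN, in a locus the table shares with 2 other genes. EEF2K, the kinase that inhibits EEF2, was between 0.0593 and 0.172 FPKM in the 6 samples.

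A second annotated gene with the product elongation factor 1-alpha, LOC100620900, had 2.05 and 1.95 FPKM in the controls, 0.516 and 0.898 after heat stress and 0.739 and 0.525 with NMN, and LOC100514912, of the same product name, was at 0 throughout. Near-identical copies can divide or share reads, so the level of EEF1A1 carries that uncertainty. LOC100620900 showed the same separation of control from the other groups at a far lower level.

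EIF1, which guards the choice of the start codon, was the most abundant factor in every sample, with 279 and 342 FPKM in the controls, 323 and 320 after heat stress and 390 and 400 with NMN. Both NMN-supplemented samples were above all 4 others, and control and heat-stressed samples overlapped. The log2 fold change of EIF1 was 0.06 (SE 0.13, adjusted P = 0.815) for heat stress against control, 0.30 (SE 0.13, adjusted P = 0.383) for NMN against heat stress and 0.35 (SE 0.13, adjusted P = 0.109) for NMN against control. EIF1 lies at chr12:20974498-20977075.

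EIF1AX, which acts with EIF1 in scanning, had 4.15 and 3.29 FPKM in the controls, 6.84 and 6.32 after heat stress and 5.48 and 5.74 with NMN. It had the largest positive value of the 24 factors in heat-stressed against control oocytes, a log2 difference of 0.69 (SE 0.13, adjusted P = 0.118), with no overlap between the groups. NMN-supplemented samples lay between the other groups, at -0.20 against heat stress (SE 0.13, adjusted P = 0.481) and 0.49 against control (SE 0.13, adjusted P = 0.0519). EIF1AX and EEF1A1 were the 2 factors whose unadjusted P in heat-stressed against control oocytes stayed under 0.05 in every alternative tried. EIF1B, a close relative of EIF1 whose listed locus holds 3 other genes, ranged from 9.77 to 17.0 FPKM with overlap between all groups.

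Of the subunits of EIF2, the carrier of the initiator tRNA, EIF2S2 (beta) had 2.19 and 4.03 FPKM in the controls, 2.08 and 2.28 after heat stress and 1.26 and 1.93 with NMN. Control replicate 2 stood above the other 5 samples, and without it the log2 fold change of NMN against control, -0.64 (SE 0.25, adjusted P = 0.116), was -0.31. EIF2S2 shares its listed locus with ASIP. For heat stress against control and NMN against heat stress it had -0.34 (SE 0.25, adjusted P = 0.452) and -0.30 (SE 0.25, adjusted P = 0.546). EIF2S1 (alpha), the subunit phosphorylated in the integrated stress response, was even across the samples, from 1.62 to 2.04 FPKM, and EIF2S3 (gamma) had 0.476 to 0.669 FPKM.

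EIF2B, the exchange factor that recharges EIF2 with GTP, was represented mainly by its alpha subunit. EIF2B1 had 2.2 and 2.67 FPKM in the controls, 1.93 and 2.09 after heat stress and 2.56 and 2.70 with NMN, so the heat-stressed samples were the 2 lowest. Its log2 fold changes were -0.19 (SE 0.12, adjusted P = 0.403), 0.27 (SE 0.12, adjusted P = 0.383) and 0.08 (SE 0.12, adjusted P = 0.647) for heat stress against control, NMN against heat stress and NMN against control. EIF2B4 had 0.429 and 0.520 FPKM in control and was listed at 0 in 3 of the other 4 samples, with 0.0817 in NMN replicate 2. The other EIF2B subunits, EIF2B2, EIF2B3 and EIF2B5, reached at most 0.237 FPKM in any sample.

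EIF2A, a tRNA-binding factor that is not a subunit of EIF2, had 1.62 and 1.73 FPKM in the controls, 2.37 and 2.33 after heat stress and 2.22 and 2.40 with NMN. The controls were the 2 lowest samples. On the log2 scale EIF2A differed by 0.32 (SE 0.11, adjusted P = 0.187) for heat stress against control, -0.02 (SE 0.11, adjusted P = 0.949) for NMN against heat stress and 0.31 (SE 0.11, adjusted P = 0.0967) for NMN against control.

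EIF3 is the many-subunit scaffold of the scanning ribosome, and 10 of its 12 listed genes were below the minimum for testing. EIF3J, a loosely bound subunit, was the highest, with 3.46 and 4.58 FPKM in the controls, 4.24 and 4.12 after heat stress and 2.83 and 2.97 with NMN. The NMN-supplemented samples were the 2 lowest, at log2 fold changes of -0.41 against heat stress (SE 0.14, adjusted P = 0.352) and -0.36 against control (SE 0.14, adjusted P = 0.121), where heat stress against control gave 0.05 (SE 0.14, adjusted P = 0.830).

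EIF3L had 1.79 and 1.69 FPKM in the controls, 1.32 and 0.878 after heat stress and 1.06 and 0.956 with NMN, with controls above the other 4 samples. In heat stress against control, NMN against heat stress and NMN against control, the order used from here on, EIF3L had log2 fold changes of -0.39 (SE 0.15, adjusted P = 0.204), -0.05 (SE 0.15, adjusted P = 0.871) and -0.45 (SE 0.15, adjusted P = 0.0781). The remaining subunits did not follow one course. EIF3A, the largest subunit, had 0.486 and 0.421 FPKM in the controls, 0.664 and 0.647 after heat stress and 0.608 and 0.863 with NMN, while EIF3H had 0.152 and 0.174, 0.131 and 0.127, and 0.0654 and 0.0721. The gene LOC110260088, annotated as EIF3 subunit C, was between 0.129 and 0.276 FPKM in the 6 samples.

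Against control, EIF4A2 and EIF4A1, genes of the RNA helicase EIF4A, lay on opposite sides, while both were higher with NMN than after heat stress alone. EIF4A2 had 42.0 and 46.1 FPKM in the controls, 47.7 and 50.7 after heat stress and 64.5 and 55.7 with NMN, and EIF4A1 had 14.2 and 16.9, 11.6 and 11.3, and 11.7 and 12.9. EIF4A2 was thus lowest in control and highest with NMN, and EIF4A1 was highest in control, in each case without overlap. The log2 fold change of EIF4A2 (in a locus listed with RFC4) was 0.16 (SE 0.13, adjusted P = 0.478), 0.28 (SE 0.13, adjusted P = 0.383) and 0.44 (SE 0.13, adjusted P = 0.0600) in the 3 comparisons, and that of EIF4A1 was -0.41 (SE 0.13, adjusted P = 0.173), 0.09 (SE 0.13, adjusted P = 0.729) and -0.32 (SE 0.13, adjusted P = 0.124).

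Several FPKM ratios of related factors were taken after their values had been seen, and are given as descriptions. EIF4A2 to EIF4A1 was 2.95 and 2.73 in the controls, 4.11 and 4.48 after heat stress and 5.53 and 4.32 with NMN. EIF4A2 to EEF1A1, an initiation factor over an elongation factor, was 0.394 and 0.434, 0.637 and 0.723, and 1.22 and 0.977, and EIF1 to EEF1A1 was 2.62 and 3.22, 4.32 and 4.56, and 7.36 and 7.02. A ratio within a sample does not depend on a linear scaling of the samples.

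EIF4A3, a helicase of the exon junction complex, had 0.418 and 0.304 FPKM in the controls, 0.0765 and 0.0527 after heat stress and 0.156 and 0.175 with NMN. Of the helicase cofactors, EIF4H had 21.7 to 31.1 FPKM, with both NMN-supplemented samples (29.0 and 31.1) above the other 4, and EIF4B had 2.31 to 2.69 FPKM.

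The cap-binding family was led by EIF4E1B, an oocyte form of EIF4E, with 58.1 and 66.6 FPKM in the controls, 53.7 and 50.9 after heat stress and 55.8 and 62.0 with NMN. The heat-stressed samples were the 2 lowest, at log2 fold changes of -0.25 against control (SE 0.12, adjusted P = 0.294) and 0.17 for NMN against heat stress (SE 0.12, adjusted P = 0.512), with -0.08 for NMN against control (SE 0.12, adjusted P = 0.658). The general EIF4E was far lower, from 1.17 to 1.92 FPKM with overlap between all groups, so EIF4E1B to EIF4E was 49.7 and 43.9 in the controls, 28.0 and 36.0 after heat stress and 34.3 and 42.5 with NMN.

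EIF4E3, another relative of EIF4E, had 0.925 and 0.789 FPKM in the controls, 1.56 and 1.14 after heat stress and 1.36 and 1.63 with NMN, in a locus listed with GPR27. Its mean of 1.23 FPKM was over the minimum of 1 through the heat-stressed and NMN-supplemented samples, since both controls were below it. The controls were the 2 lowest samples, and the log2 fold changes were 0.33 (SE 0.15, adjusted P = 0.244), 0.09 (SE 0.15, adjusted P = 0.776) and 0.42 (SE 0.15, adjusted P = 0.0876). EIF4E2, a cap-binding protein that represses translation, had 1.15 and 1.32, 0.652 and 0.790, and 0.503 and 0.726 FPKM, with the controls highest. The EIF4E-binding proteins, which hold EIF4E back when they are not phosphorylated, were near the floor. The highest, EIF4EBP2, had 0.337 and 0.273 FPKM in the controls, 0.406 and 0.456 after heat stress and 0.287 and 0.428 with NMN, in a locus listed with NODAL.

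EIF4G2, which lacks the EIF4E-binding site of the other EIF4G proteins and serves initiation that does not depend on EIF4E, had 36.0 and 49.7 FPKM in the controls, 47.8 and 56.9 after heat stress and 62.7 and 65.9 with NMN. Both NMN-supplemented samples were above the other 4, and control overlapped heat stress. The log2 fold change was 0.30 (SE 0.18, adjusted P = 0.376), 0.30 (SE 0.18, adjusted P = 0.454) and 0.59 (SE 0.18, adjusted P = 0.0704) in the 3 comparisons. The scaffold of the cap-binding complex, EIF4G1, had 0.521 and 0.443 FPKM in the controls, 0.456 and 0.477 after heat stress and 0.388 and 0.373 with NMN, and EIF4G2 to EIF4G1 was 69.0 and 112, 105 and 119, and 162 and 177.

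**Figure D4:**
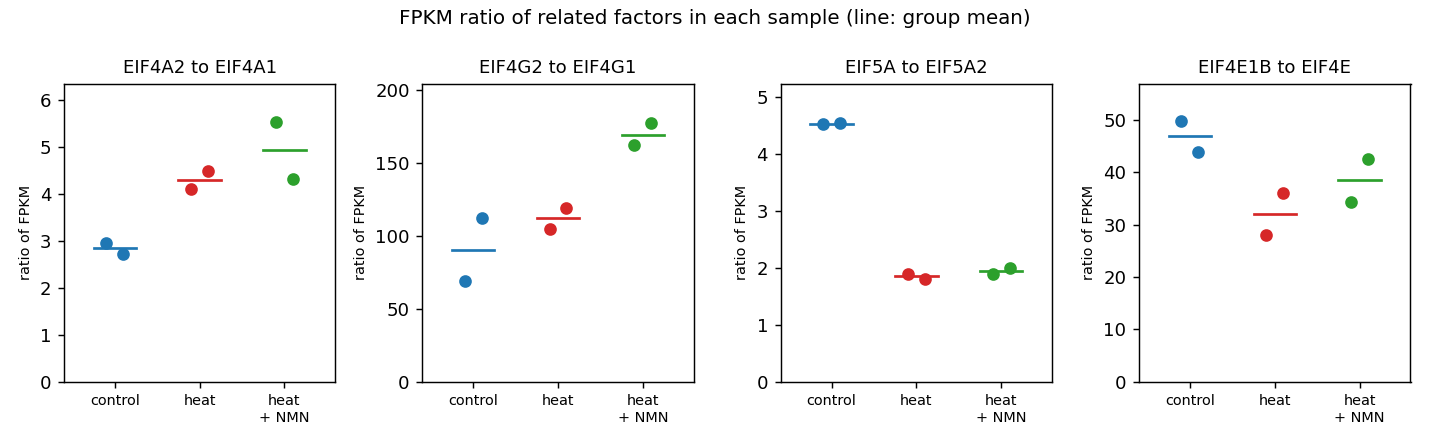
Ratio of the FPKM of EIF4A2 to EIF4A1, EIF4G2 to EIF4G1, EIF5A to EIF5A2 and EIF4E1B to EIF4E in each of the 6 samples (points), with a line at the mean of each group. EIF5A to EIF5A2 is 4.53 and 4.54 in control and between 1.81 and 2 in the other 4 samples. The ratios were taken after the values had been seen.

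Of the EIF5 factors, EIF5, which triggers GTP hydrolysis on EIF2, had 22.3 and 23.4 FPKM in the controls, 26.7 and 23.5 after heat stress and 20.9 and 21.9 with NMN. The log2 fold changes of EIF5 were 0.13 (SE 0.12, adjusted P = 0.534), -0.22 (SE 0.12, adjusted P = 0.400) and -0.09 (SE 0.12, adjusted P = 0.589), and LOC100522498, which is annotated with the same product, had 1.67 to 2.88 FPKM. EIF5B, which joins the ribosomal subunits, ranged from 14.1 to 23.2 FPKM, with overlap between all groups.

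EIF5A, the hypusine-bearing factor that helps ribosomes past difficult peptide bonds, and its relative EIF5A2 were placed in opposite order. EIF5A had 5.78 and 7.04 FPKM in the controls, 5.08 and 3.33 after heat stress and 5.25 and 3.92 with NMN, and EIF5A2 had 1.28 and 1.55, 2.67 and 1.84, and 2.77 and 1.97. The controls were the 2 highest samples for EIF5A and the 2 lowest for EIF5A2. Neither passed the test, with log2 fold changes in heat-stressed against control oocytes of -0.53 (SE 0.22, adjusted P = 0.231) for EIF5A and 0.42 (SE 0.19, adjusted P = 0.259) for EIF5A2. Their ratio was 4.53 ± 0.00832 in control, 1.86 ± 0.064 in heat-stressed and 1.94 ± 0.0716 in NMN-supplemented oocytes (SD, n = 2 each). EIF6, which keeps the ribosomal subunits apart, had 0.554 and 0.494 FPKM in the controls, 0.221 and 0.252 after heat stress and 0 and 0.204 with NMN.

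Oocyte mRNAs are often activated through a U-rich cytoplasmic polyadenylation element close to the poly(A) signal at the end of the mRNA, so the last 100 bases of the longest annotated transcript of each gene were searched for both. The element was taken as TTTTAT or TTTTAAT and the signal as AATAAA or ATTAAA, on the sense strand of Sscrofa11.1. Of the factors with the element, 5 chosen after their values were seen are shown with the 2 other elongation factors that fell, as stretches of 30 bases given 5′ to 3′ in DNA letters, with these motifs in capitals. Sequences and transcripts are from RefSeq.
EEF1A1, chr1:92424979-92425008, plus strand: ctTTTTAATggaaacaacttgaccaaaaat
EIF1, chr12:20974527-20974556, minus strand: agTTTTAATgttatgtaatgtatttaaacc
EIF4G2, chr2:48678613-48678642, plus strand: gaTTTTATatacttgtatctatcAATAAAc
EIF5B, chr3:54861808-54861837, minus strand: acTTTTAATgtgcttccgtaagtttgttgt
EIF3J, chr1:126998633-126998662, minus strand: tgTTTTATaaagcaactaatttAATAAAgt
EEF2, chr2:74756650-74756679, plus strand: tgccattggaatAATAAAtttgatatggtg
EEF1B2, chr15:109455498-109455527, plus strand: ctgttgcccttcAATAAAagtttgaaagac

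EEF1A1 carried the element, 75 bases from the start of the stretch to the end of the transcript, and EEF2 and EEF1B2 had the signal without the element in the bases searched. The element was thus present in 1 of the 3 elongation factors that fell and also in EIF1 and EIF4G2, whose NMN-supplemented samples were the highest. It was found in 6 of the 23 tested factors with an annotated mRNA (26.1%; EEF1A1, EIF1, EIF3J, EIF4E, EIF4G2 and EIF5B), against 24.7% of 4157 tested genes, and in 10 of 56 factors (17.9%), against 15.3% of 20647 genes. The poly(A) signal was found in 91.3% of the tested factors and 80.1% of the tested genes. The element and the signal overlap where TTTTAAT runs on into AATAAA, and such an overlap was the sole source of the element in 0 factors and in 1.15% of tested genes. A match is a description of these letters and does not show that the element is used.

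Other genes of translation were taken as a list of 61, with the EIF2 kinases and phosphatase subunits, the mTOR pathway, poly(A)-binding proteins, release factors and mRNA-binding regulators, of which 20 were tested. In heat-stressed against control oocytes 2 of the 20 were higher and 0 lower at an unadjusted P under 0.05, in NMN-supplemented against heat-stressed oocytes 4 were higher and 0 lower, and in NMN-supplemented against control oocytes 5 were higher and 1 lower. The shares of all tested genes were 12.7% higher and 10.1% lower, 7.15% higher and 6.45% lower, and 25.6% higher and 15.7% lower in these comparisons. The 2 and 5 of 20 on the higher side in the first and last comparisons were near these shares. The 4 of 20 in the second were over theirs. The median log2 fold changes of the 20 were -0.02, 0.12 and 0.21. At the adjusted threshold 2 rose and 0 fell in NMN-supplemented against control oocytes, where 12.4% of all tested genes rose and 9.17% fell. Thus 2 of 20 rising is near the share of all tested genes.

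The genes that rose were DDX3X and FMR1. DDX3X, a helicase that aids initiation on structured mRNAs, had 36.2 and 32.1 FPKM in the controls, 42.6 and 46.1 after heat stress and 59.9 and 52.6 with NMN, with a log2 difference of 0.70 against control (SE 0.13, adjusted P = 0.0260). FMR1, which encodes an mRNA-binding repressor of translation, had 3.27 and 3.18, 5.45 and 5.11, and 5 and 5.38 FPKM, with a log2 difference of 0.55 in NMN-supplemented against control oocytes (SE 0.11, adjusted P = 0.0294) and 0.57 in heat-stressed against control oocytes (SE 0.11, adjusted P = 0.118). For DDX3X and FMR1 against control in turn, the adjusted P was 0.0512 and 0.067 without control replicate 1, 0.11 and 0.113 without control replicate 2, 0.133 and 0.13 without NMN replicate 1 and 0.0979 and 0.144 without NMN replicate 2. It was 0.0552 for both with a minimum mean of 0.1 FPKM. The other genes with the smallest P in a comparison were LARP4 (0.25 in heat-stressed against control, adjusted P = 0.259), PABPN1L and PABPC4 (0.34 and 0.32 in NMN-supplemented against heat-stressed, adjusted P = 0.352 and 0.360) and LARP4B (0.41 in NMN-supplemented against control, adjusted P = 0.0637), whose products bind poly(A) or poly(A)-binding protein. DDX3X was highest in the same samples as EIF4A2 and EIF4G2, and the 3 elongation factors that fell were lowest there.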

How the data were processed

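Oocyte RNA of 6 samples was measured, 2 in each of 3 groups taken from the labels. Per the methods, the authors trimmed reads with cutadapt and aligned them with tophat2 to susScr11, and the submitters' processing notes name Cufflinks 2.2.1, Cuffnorm and Cuffdiff. The authors deposited FPKM of 29861 genes per sample, beside log2 fold changes, P-values and q-values of their own comparisons, which were not used. Read counts were not analysed here, so how deeply each sample was sequenced is unknown, and counting intervals are left out. All 6 sample columns matched a label.

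Values were taken as log2(FPKM + 1). The 4713 genes whose mean over the 6 samples was 1 FPKM or more were fitted in 1 model of the 3 groups with limma 3.58.1 (R 4.3.3), using moderated variances with a trend on the mean, and Benjamini-Hochberg adjustment of the two-sided P-values covered all these genes. On simulated data of 4713 genes, 200 of 200 changed genes and 4.76% of the unchanged genes had an unadjusted P under 0.05. The recovery of differences of the size seen in these factors was not tested. Gene positions and transcript ends came from RefSeq's Sscrofa11.1, and start positions are counted from 1. Tables and plots were made with Python 3.11.15, pandas 2.3.3, pysam 0.24.0 and matplotlib 3.10.9.

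The factors and gene lists were chosen with earlier results of these data known, so no P is given for a list. Full values are given for factors with an unadjusted P under 0.05 in any comparison and for the highest factor of each subgroup. Of the other translation genes, the 3 with the smallest P per comparison are named, with FPKM per sample for DDX3X and FMR1 only. Some genes share a listed locus or have near-identical copies, and counting could divide their reads. As alternatives, 0.1 FPKM was added in place of 1, the minimum mean was set to 0.1 or 5 FPKM or dropped, and the fit was repeated with quantile normalization, scaling to the same median or to the same sum without mitochondrial genes and LOC100513953, the replicate block, only the compared groups, no variance trend, and leaving out each sample.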

Additional observations from a re-analysis of the deposited data

How the results depend on the processing

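No factor with an unadjusted P under 0.05 turned its direction under any alternative, and 974 single values out of all alternatives stayed on their side of that threshold, with 30 passing it, 84 losing it and 28 changing sign without passing it. Of the 3 adjusted calls, EEF1A1, EEF2 and EEF1B2 in NMN-supplemented against control oocytes, the adjusted P was 0.0495, 0.0529 and 0.0645 with a minimum mean of 0.1 FPKM and 0.0675, 0.0923 and 0.113 with no minimum, where more genes were tested. DDX3X and FMR1 had 0.0936 and 0.0869 with no minimum, and FMR1 had 0.052 with the same sum without mitochondrial genes and LOC100513953. At those minimums 86 and 0 of all genes were called, and 1015 in the reported fit. The depth is unknown, so what it limits could not be given.

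Counts of factors with an unadjusted P under 0.05 moved by over 1.5 times as follows, with heat stress against control, NMN against heat stress and NMN against control in that order where all are named. With a minimum of 0.1 FPKM they were 11 in the first and 20 in the third, with no minimum 11 and 22, and with a minimum of 5 FPKM, where 12 factors were left, 3, 1 and 6. With only the compared groups the first was 3, and with the same sum without mitochondrial genes and LOC100513953 the second was 2. Leaving out 1 sample gave 3 to 6, 0 to 5 and 4 to 9; the lone sample of a group is then assumed to vary like the others. With the replicate block the counts were 5, 3 and 9, and EEF1B2 had an adjusted P of 0.0547 and FMR1 of 0.0579 in the third. Samples with the same number showed no broad shared shift (correlations of -0.032, -0.0139 and 0.00805). Such values cannot tell whether these samples were collected together, which neither the labels nor the methods state. The block gave 445 adjusted calls among all genes in the third comparison.

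Median log2 fold changes moved beyond the spread between replicates as follows. With a pseudocount of 0.1 FPKM, EIF3 had -0.29 in the first and -0.59 in the third, and EEF had -0.99 in the second and -1.61 in the third. With a minimum of 0.1 FPKM, EIF2 had -0.09 in the first and 0.01 in the third, EIF3 -0.05, -0.03 and -0.15, EIF4 -0.01 in the first and -0.01 in the third, and EEF -0.21, -0.09 and -0.24. With no minimum, EIF2 had -0.01 in the third, EIF3 -0.05, -0.03 and -0.16, EIF4 0.00 in the first and -0.01 in the third, and EEF -0.14, -0.09 and -0.20. With a minimum of 5 FPKM, EIF4 had 0.22 in the second and 0.32 in the third. Leaving out 1 sample gave -0.07 to 0.03 for EIF2 and 0.01 to 0.14 for EIF4 in the first comparison, reached without control replicate 2 and without heat stress replicate 1. The EEF median stayed below 0, at -0.65 to -0.34, -0.70 to -0.44 and -1.06 to -0.94. Other than by the number of genes tested, the cause of these moves was not tested.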
